A study of Arabidopsis thaliana with 58 samples.

Results

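The expanding leaves were the third and the fourth leaf of Arabidopsis thaliana (ecotype Columbia-0), collected after 8 days without magnesium, and they were chosen by their labels alone. They gave 9 of the 58 libraries of the series: 5 from Mg-deficient plants (0 mM Mg for 8 days) and 4 from control plants (1.5 mM Mg throughout). Both groups were wild type, were grown hydroponically and were 18 days old, since Mg was withdrawn from 10-day-old seedlings. By the study's methods sodium sulfate took the place of magnesium sulfate, so the Mg-free solution also held more sodium than the control solution, and lack of Mg and added sodium cannot be told apart in any comparison below. By the study's methods, leaves of a few plants were combined for each library, so a library is a small pool and not 1 plant. Nothing in the labels says that replicates came from separate culture vessels, so every p-value below measures the spread between these libraries. The comparison asks which transcripts differed between Mg-deficient and control plants in the leaves that were still growing when Mg ran out.

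Magnesium is the central atom of chlorophyll, the ion that holds ribosome subunits together, the partner of ATP in most of its reactions and an activator of Rubisco. How readily it moves out of older leaves differs among plant species, and in Arabidopsis its mobility is considered limited. Known signs of the shortage in leaves are yellowing, sugar accumulation and oxidative stress.

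The deposited value is a normalised signal per gene, a read count adjusted by the authors to a common library size, with no unit of its own. The adjustment could be undone, which gave a whole number of reads (within 0.01) at 99.99 to 100% of genes in a Mg-deficient library and at 100% in a control library. The Mg-deficient libraries held 1907297 to 2585128 reads, against 1365813 to 1974505 reads in the controls. Between 18422 and 18718 genes had a read in a Mg-deficient library, against 12275 to 15172 in a control library. With each library thinned to 1365813 reads these ranges were 17878 to 18370 and 12275 to 15065 genes, so that the gap stayed at equal depth. The Mg-deficient libraries resembled each other closely (r of 0.91 to 0.94 between pairs, across genes), the control libraries less so (0.70 to 0.77), and pairs of a Mg-deficient with a control library gave 0.38 to 0.56. The control libraries thus stand apart from each other and hold fewer genes, and the part of this in the results below was not tested. All 5 listed markers of leaf mesophyll had signal in every library, and all 5 were lower in the Mg-deficient libraries. Together they held 0.66 to 1.27% of the signal there, against 3.62 to 4.01% in the controls. RBCS1A, the small subunit of Rubisco, had signals of 10631, 15057, 12388, 17656 and 17808 in the Mg-deficient libraries, against 51247, 57596, 40236 and 46446 in the control libraries. CA1, another of the 5, had 134, 175, 112, 402 and 90.5, against 6753, 2985, 2998 and 4421. RBCS1A and RCA count again below among the Calvin cycle genes, and CAB3 and LHCB3 among the antenna genes. Of 8 listed root hair and root epidermis markers, 2 were in the table, and no library had a signal above 2.99 for either.

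A gene was tested where its mean signal over the 9 libraries was at least 5, and log2 of the signal plus 1 was compared with limma. The fold changes below are Mg-deficient over control on that scale with their standard errors, and a gene was said to rise or fall where its Benjamini-Hochberg adjusted p over all tested genes was under 0.05. The table lists 20082 genes, and 15523 of them were tested. Expression was higher in Mg-deficient leaves for 4774 genes (30.8% of those tested) and lower for 2317 genes (14.9%), with a median log2 fold change of 0.63 over all genes tested. Under another common scaling, the median of ratios, this median moved by -0.43 and the counts came to 3578 higher and 3058 lower, so 53.9% of calls were rises there against 67.3% under the deposited scaling. Changes are therefore best read relative to the median. In whole leaves fewer cells of a type and less RNA per cell cannot be told apart. In 4058 genes (26.1%) every Mg-deficient library lay above every control, and in 2007 genes (12.9%) every Mg-deficient library lay below. Of the risen genes 633 had no read in any control library, and of the fallen genes 13 had no read in any Mg-deficient library. Since the filter looks at the mean, 900 tested genes had a Mg-deficient mean under 5 and 1922 had a control mean under 5, and such a gene was tested through the group in which it was high.

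**Figure D1:**
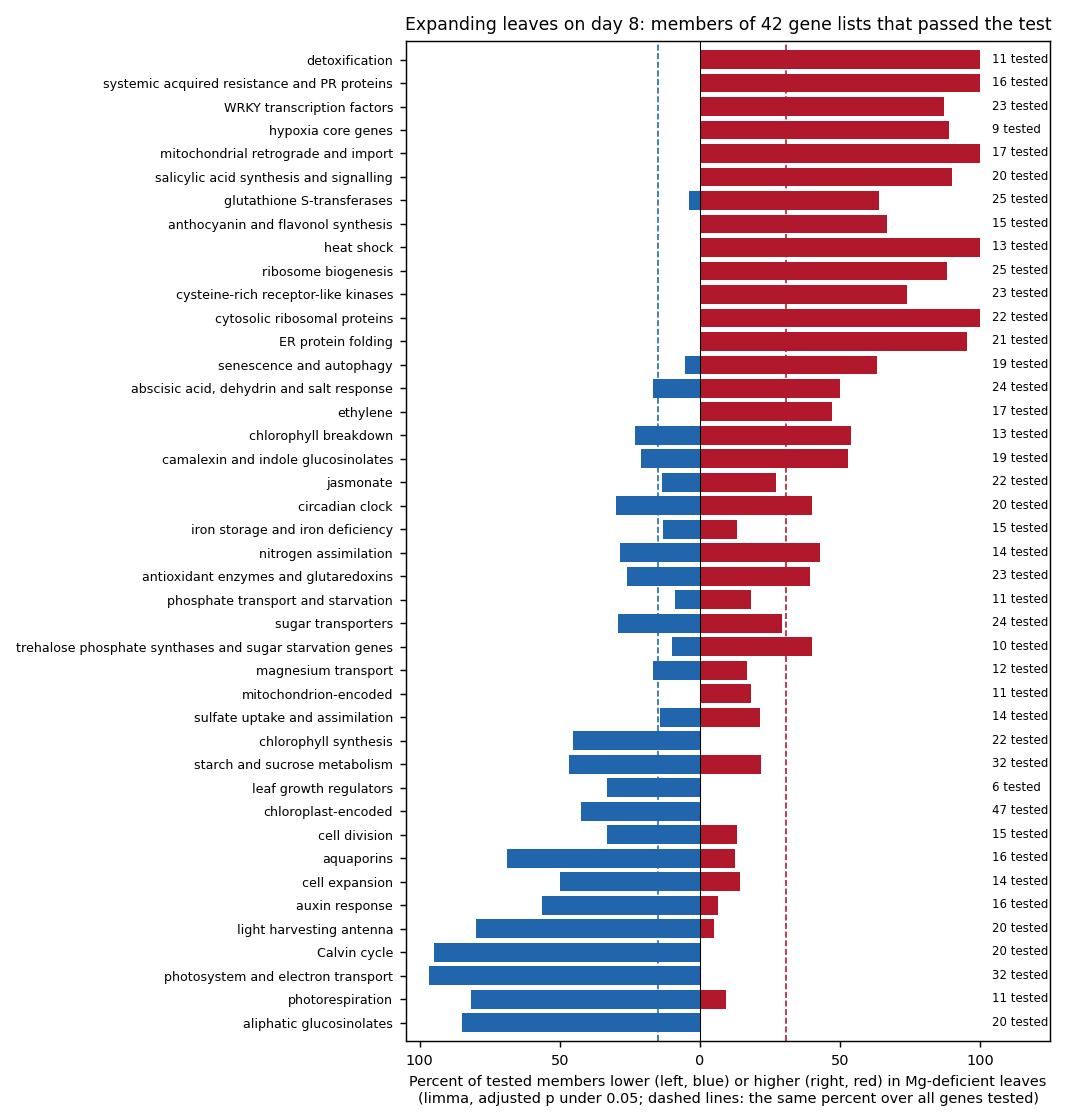
Percent of the tested members of 42 gene lists that were lower (bars to the left, blue) or higher (bars to the right, red) in Mg-deficient than in control expanding leaves on day 8, with the number of members tested at the right and the lists sorted by their median log2 fold change. The dashed lines mark the percent over all genes tested, 30.8% higher and 14.9% lower; photosystem genes fell in 31 of 32 cases and cytosolic ribosomal protein genes rose in 22 of 22.

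The largest rises were in genes with next to no signal in control leaves. AT3G02480, a late embryogenesis abundant (LEA) family protein of the kind made under water stress, stood at 8393, 3502, 4375, 4828 and 4076 in the Mg-deficient libraries, against 0, 1.0, 0 and 0 in the control libraries. Adjusted for library size, this was a ratio of reads of 17800 (95% counting interval 3190 to 702000, adjusted p = 2.39e-10). UGT74E2, a glycosyltransferase for the auxin indole-3-butyric acid, was measured at 2918, 1376, 1828, 1426 and 1904 in the Mg-deficient libraries, against 0 in each control library. It was at least 2230-fold higher in Mg-deficient leaves (10366 reads against 0, adjusted p = 2.39e-10). AT3G28510, which the reference annotates as a P-loop nucleoside triphosphate hydrolase, had a signal of 5376, 2810, 3480, 2542 and 4517 in the Mg-deficient libraries, against 0, 1.0, 0 and 0 in the control libraries, with a ratio of reads of 13300 (95% counting interval 2380 to 524000, adjusted p = 2.39e-10). LTP4, a lipid transfer protein of the cuticle, had signals of 1724, 2153, 1461, 1388 and 765 in the Mg-deficient libraries, against 0, 1.0, 0 and 0 in the control libraries, with a ratio of reads of 5280 (95% counting interval 947 to 208000, adjusted p = 2.11e-09). In each of these genes the lowest Mg-deficient library was far above the highest control, and for AT3G02480 replicate 1 of the Mg-deficient plants was well above the other 4. The rest of the 12 largest rises were 3 further P-loop hydrolase and MATE efflux genes (AT3G28580, AT2G18193 and AT2G04070), the MATE efflux gene DTX3, the lipid-transfer family gene AT3G22600, LEA7 and the glutathione S-transferases GSTU24 and GSTU25, each with 5 or fewer reads over the control libraries. LEA7 spread most among the Mg-deficient libraries, with 6108, 465, 518, 1314 and 3683.

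The largest falls took out genes that growing control leaves transcribed strongly. GER3, a germin-like protein of the cell wall, stood at 3.0, 2.0, 2.2, 13.7 and 1.7 in the Mg-deficient libraries, against 5053, 1567, 3828 and 3641 in the control libraries (log2 fold change -9.55 ± 0.51, adjusted p = 6.23e-08). FBA5, a fructose-bisphosphate aldolase, was measured at 4.0, 13.9, 1.0, 61.6 and 1.5 in the Mg-deficient libraries, against 967, 1056, 1016 and 757 in the control libraries (log2 fold change -6.98 ± 0.82, adjusted p = 2.68e-05). In both genes replicate 4 of the Mg-deficient plants kept the most signal, and no library overlapped. MES18, a methyl esterase family gene, and SAUR23, a small auxin-induced gene, had no read in any Mg-deficient library, and were at least 160-fold and at least 109-fold lower than in control leaves. The other large falls were PnsL2 and PnsL3, subunits of the chloroplast NADH dehydrogenase-like complex, LHCA6, which links that complex to photosystem I, the auxin repressor IAA29, the arabinogalactan protein AGP41, SCPL13, AGL87 and AT5G54585.

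The ranking of the most abundant transcripts differed. RBCS1A held 0.729 ± 0.167% of the signal of the Mg-deficient libraries (SD, n = 5), against 2.73 ± 0.237% of that of the control libraries, where it was at the top (SD, n = 4), and its log2 fold change was -1.75 ± 0.21 (adjusted p = 2.85e-05). The top of the Mg-deficient libraries was shared by the arabinogalactan protein AGP15 and AT1G07590, a tetratricopeptide-repeat protein, which had a signal of 26031, 21727, 26185, 19247 and 25887 in the Mg-deficient libraries, against 7624, 9886, 4942 and 9067 in the control libraries (log2 fold change 1.63 ± 0.22, adjusted p = 7.39e-05). UBQ10, a polyubiquitin gene often used as a reference in expression assays, had signals of 13482, 6530, 12044, 8669 and 7897 in the Mg-deficient libraries, against 1639, 1169, 860 and 1001 in the control libraries (log2 fold change 3.05 ± 0.25, adjusted p = 1.88e-06). The groups of UBQ10 lay far apart. SOT12, a sulfotransferase that acts on salicylic acid and brassinosteroids, stood at 15494, 4471, 10949, 8041 and 9154 in the Mg-deficient libraries, against 50.5, 74.4, 35.3 and 59.7 in the control libraries (log2 fold change 7.36 ± 0.32, adjusted p = 1.33e-08). SOT12 made up 0.47 ± 0.183% of the Mg-deficient signal, against 0.00305 ± 0.000766% of the control signal (SD). MT2A, a metallothionein, and AGP15 were near the top of both groups and changed little, with log2 fold changes of 0.42 ± 0.18 (adjusted p = 0.0773) and 0.58 ± 0.20 (adjusted p = 0.0277).

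**Figure D2:**
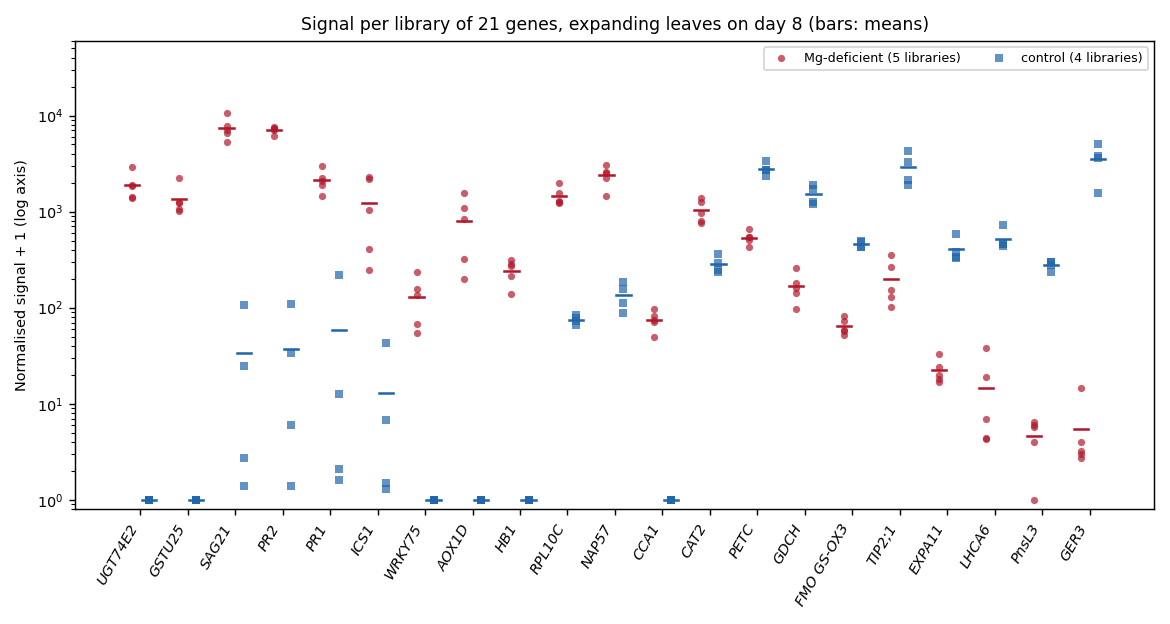
Normalised signal plus 1 (log axis) of 21 genes in each library of expanding leaves on day 8, with red circles for the 5 Mg-deficient and blue squares for the 4 control libraries, and a bar at each group's mean. UGT74E2, GSTU25, WRKY75, AOX1D, HB1 and CCA1 had no read in any control library, and for the genes from PETC to GER3 at the right every Mg-deficient library lay below every control.

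Genes of the photosynthetic apparatus fell nearly as a whole. In thylakoids the antenna proteins pass light energy to the photosystems, electrons flow through plastoquinone, the cytochrome complex and plastocyanin to ferredoxin, and the Calvin cycle spends the products on fixing carbon. Of 32 listed genes of photosystems and electron transport, 31 fell and none rose, with a median log2 fold change of -2.35 beside 0.63 over all genes tested. Together they held 0.742, 1.74, 1.32, 1.75 and 1.19% of the signal of the Mg-deficient libraries, against 7.9, 6.79, 6.71 and 7.11% of that of the controls. PETC, the Rieske iron-sulfur protein of the cytochrome complex, was measured at 423, 538, 506, 651 and 540 in the Mg-deficient libraries, against 3357, 2707, 2344 and 2697 in the control libraries (log2 fold change -2.38 ± 0.18, adjusted p = 9.08e-07). PSBR, a subunit of photosystem II, PSAH-1, a subunit of photosystem I, and FNR2, the reductase that makes NADPH, fell by 2.27 ± 0.18, 2.80 ± 0.24 and 3.09 ± 0.26 on the log2 scale. The member that did not pass was PGR5, which serves cyclic electron flow, at -0.43 ± 0.19 (adjusted p = 0.0767). PnsL3 was nearly silent without Mg and had a signal of 3.0, 5.0, 4.8, 5.4 and 0 in the Mg-deficient libraries, against 299, 233, 296 and 280 in the control libraries (log2 fold change -6.15 ± 0.57, adjusted p = 4.27e-06).

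The stretch before the PETC start is shown for its I box (GATAAG, or CTTATC on the other strand, in capitals), a motif known from light-regulated promoters. It covers the 250 bases before the annotated gene start, on chromosome 4 at chr4:1439896-1440145, plus strand, and was read from the TAIR10.1 reference, whose nuclear chromosomes are those of TAIR10.
PETC: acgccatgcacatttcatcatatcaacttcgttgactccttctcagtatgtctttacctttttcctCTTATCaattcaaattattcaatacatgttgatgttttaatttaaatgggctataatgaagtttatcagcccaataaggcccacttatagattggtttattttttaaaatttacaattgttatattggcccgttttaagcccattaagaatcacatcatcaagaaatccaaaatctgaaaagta
The I box stood in 8 of the 32 photosystem windows (25%) and in 12.3% of all 27443 promoter windows of this length. It stood in 1 of the 11 photorespiration windows (9.09%) and in 1 of the 22 chlorophyll synthesis windows (4.55%). Among other lists that fell, it stood in 5 of the 20 Calvin cycle windows (25%) and 4 of the 20 antenna windows (20%). In lists that rose it stood in 7 of the 23 WRKY windows (30.4%) and 6 of the 20 salicylic acid windows (30%). Over all fallen genes the share was 15.8%, over all risen genes 11.4% and over all genes tested 12.6%. The I box was thus not particular to photosystem genes.

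Antenna genes fell less evenly. Of 20 listed, 16 fell, 1 rose and 3 did not pass, with a median of -1.92. LHCB5, a minor antenna protein of photosystem II, had signals of 199, 709, 460, 755 and 334 in the Mg-deficient libraries, against 3148, 2693, 2602 and 2732 in the control libraries (log2 fold change -2.66 ± 0.34, adjusted p = 4.47e-05). LHCA6 stood at 6.0, 17.9, 3.4, 37.0 and 3.3 in the Mg-deficient libraries, against 717, 454, 460 and 433 in the control libraries (log2 fold change -5.67 ± 0.60, adjusted p = 1.17e-05), which is the largest fall among the 20. Replicate 4 of the Mg-deficient plants was the highest of its group in 14 of these 20 genes and replicate 1 in none. CAB2 was the member that rose, since it was measured at 1179, 3880, 2623, 3575 and 2956 in the Mg-deficient libraries, against 935, 1676, 1682 and 1724 in the control libraries (log2 fold change 0.85 ± 0.33, adjusted p = 0.0488). CAB1 and CAB3 lie beside CAB2 and are nearly identical to it, and fell (-2.02 ± 0.31 and -0.92 ± 0.26), so how 50-base reads were shared among the 3 is uncertain and their separate values should be read with care. The CAB2 rise was a narrow call, lost when any library other than replicate 1 of the Mg-deficient plants was left out, and under median-of-ratios scaling or equal reads per library. LHCB2.1 and LHCB2.2, which are also close copies, had log2 fold changes of 0.42 ± 0.31 and -0.02 ± 0.43 and did not pass.

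Carbon fixation and photorespiration followed the photosystems. Of 20 Calvin cycle genes 19 fell and none rose (median -2.22), and of 11 photorespiration genes 9 fell and 1 rose (median -2.48). CP12-2, the small protein that ties up Calvin cycle enzymes in the dark, had a signal of 23.0, 73.7, 55.5, 88.5 and 21.9 in the Mg-deficient libraries, against 1442, 1271, 865 and 1045 in the control libraries (log2 fold change -4.62 ± 0.41, adjusted p = 3.05e-06). The Rubisco small subunit genes of chromosome 5 fell by more than RBCS1A, with log2 fold changes of -3.58 ± 0.39 for RBCS1B, -4.46 ± 0.55 for RBCS2B and -3.25 ± 0.31 for RBCS3B, which are close copies whose reads may have been shared unevenly. In photorespiration, GDCH, the hydrogen-carrier protein of glycine decarboxylase, had signals of 97.0, 181, 161, 258 and 140 in the Mg-deficient libraries, against 1719, 1247, 1904 and 1211 in the control libraries (log2 fold change -3.22 ± 0.27, adjusted p = 2.12e-06). SHM1 and HPR, the mitochondrial serine hydroxymethyltransferase and the peroxisomal hydroxypyruvate reductase, fell by 2.65 ± 0.23 and 2.63 ± 0.27 on the log2 scale. The gene that rose was CAT2, the peroxisomal catalase that destroys the hydrogen peroxide of photorespiration, and it stood at 798, 1249, 1383, 754 and 977 in the Mg-deficient libraries, against 244, 293, 237 and 359 in the control libraries (log2 fold change 1.84 ± 0.23, adjusted p = 3.63e-05). No Mg-deficient library of CAT2 overlapped a control.

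Chlorophyll genes split by direction of the pathway. Of 22 synthesis genes tested 10 fell and none rose (median -0.63), and of 13 breakdown genes 7 rose and 3 fell (median 1.67). CHLM, the Mg-protoporphyrin methyltransferase, was measured at 14.0, 41.9, 34.0, 64.9 and 12.1 in the Mg-deficient libraries, against 312, 152, 275 and 220 in the control libraries (log2 fold change -3.02 ± 0.47, adjusted p = 0.00022). CHLG, the last enzyme of the pathway, PCB2 and HEME2 also fell by 2.64 ± 0.50, 2.90 ± 0.51 and 1.96 ± 0.27 on the log2 scale. The pair of genes for the I subunit of Mg chelatase, which puts the metal into the ring, gave unequal values, a difference that was not tested: CHLI2 fell (-1.92 ± 0.54, adjusted p = 0.0115), while CHLI1 had a signal of 60, 165, 140, 153 and 95.2 in the Mg-deficient libraries, against 265, 33.1, 178 and 134 in the control libraries (log2 fold change -0.07 ± 0.52, adjusted p = 0.928). For CHLI1 the groups overlapped, replicate 2 of the controls was the lowest of all 9 libraries, and the sign of the change turned with several single libraries left out, replicate 1 of either group among them. On the breakdown side NYE1, the Mg-dechelatase that starts chlorophyll loss, had signals of 208, 109, 121, 223 and 186 in the Mg-deficient libraries, against 46.6, 6.5, 9.8 and 48.1 in the control libraries (log2 fold change 2.97 ± 0.56, adjusted p = 0.000835). PPH, the pheophytinase, rose by 1.67 ± 0.25 on the log2 scale, and the vacuolar ABC transporter MRP3, which carries chlorophyll catabolites, stood at 1798, 710, 1613, 1428 and 1344 in the Mg-deficient libraries, against 11.4, 3.7, 38.7 and 24.4 in the control libraries (log2 fold change 6.40 ± 0.52, adjusted p = 1.63e-06). The members that fell were HCAR and NYC1, which turn chlorophyll b into chlorophyll a, and the chlorophyllase CLH1.

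Plastid transcripts were also fewer. Of 75 chloroplast-encoded genes listed, 47 were tested, 20 fell and none rose (median -0.86, with 8 of the 47 under 5 in the Mg-deficient mean). The 75 held 0.261 to 0.312% of the signal in the Mg-deficient libraries, against 1.23 to 1.90% in the controls. The library chemistry selects messenger RNA, and plastid transcripts were measured after that step. ATCG00220 was measured at 2067, 1537, 1755, 1332 and 1473 in the Mg-deficient libraries, against 10245, 11795, 8240 and 17118 in the control libraries (log2 fold change -2.82 ± 0.22, adjusted p = 1.28e-06). No library overlapped for this gene, nor for ATCG01020, ATCG00470 and ATCG00300, which fell by 2.81 ± 0.22, 2.2 ± 0.16 and 2.78 ± 0.29 on the log2 scale. The list had 1, 3 and 2 rises when replicate 1, 2 or 4 of the controls was left out. Of 35 mitochondrion-encoded genes 11 were tested, 2 rose and none fell, with a median of 0.03 that turned to -0.73 under median-of-ratios scaling. The 2 rises came to 1 without replicate 1, 2, 3 or 5 of the Mg-deficient plants or replicate 4 of the controls, and 1 gene fell without replicate 3 of the Mg-deficient plants or replicate 4 of the controls.

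**Figure D3:**
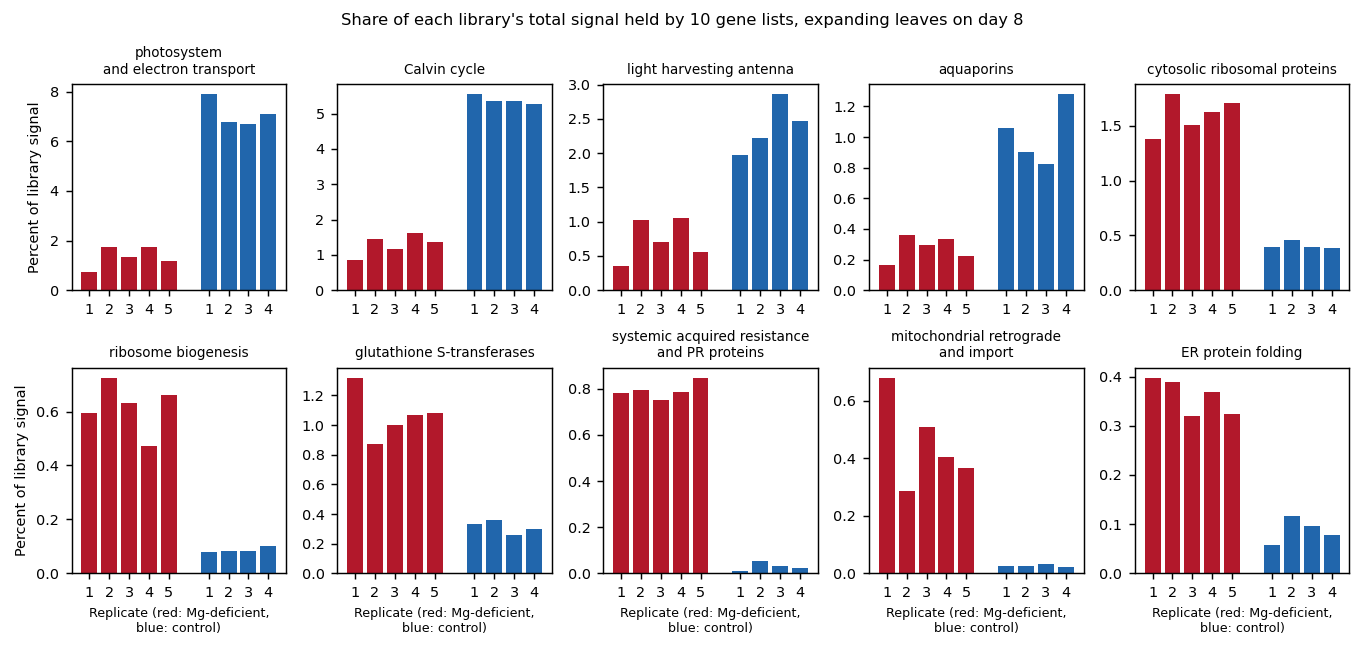
Percent of each library's total normalised signal held by the members of 10 gene lists in expanding leaves on day 8, with 1 red bar per Mg-deficient replicate (1 to 5) and 1 blue bar per control replicate (1 to 4) and each panel on its own axis from 0. Photosystem genes held 0.742 to 1.75% in Mg-deficient libraries and 6.71 to 7.9% in controls, and cytosolic ribosomal protein genes 1.38 to 1.79% and 0.383 to 0.462%.

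The cytosolic protein-making machinery went the other way. Ribosomes are assembled in the nucleolus, where small nucleolar proteins modify ribosomal RNA and assembly factors add the ribosomal proteins. Of 22 ribosomal protein genes tested 22 rose (median 2.29), and of 25 ribosome biogenesis genes 22 rose and none fell (median 3.01). RPL10C, a protein of the large subunit, had a signal of 1960, 1276, 1230, 1256 and 1542 in the Mg-deficient libraries, against 71.8, 64.7, 83.7 and 76.8 in the control libraries (log2 fold change 4.25 ± 0.20, adjusted p = 2.08e-08). RPS6A, whose protein is phosphorylated by S6 kinase downstream of TOR, had signals of 1507, 1812, 1568, 1838 and 1952 in the Mg-deficient libraries, against 290, 280, 269 and 306 in the control libraries (log2 fold change 2.59 ± 0.16, adjusted p = 2.1e-07). These values were even within each group, and the groups lay far apart. The nucleolar proteins NOP56 and NAP57, of the methylating and the pseudouridylating particles, moved together: NOP56 stood at 3002, 3341, 3062, 1835 and 3183 in the Mg-deficient libraries, against 205, 107, 233 and 242 in the control libraries (log2 fold change 3.90 ± 0.26, adjusted p = 4.65e-07) and NAP57 was measured at 2242, 3070, 2560, 1468 and 2541 in the Mg-deficient libraries, against 186, 86.5, 111 and 155 in the control libraries (log2 fold change 4.15 ± 0.26, adjusted p = 2.98e-07). Replicate 4 of the Mg-deficient plants was the lowest of its group in both.

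The region before RPL10C is printed for its site II motif (TGGGCC, in capitals), which is known from promoters of ribosomal protein genes. It is on chromosome 1 at chr1:24838840-24839089, plus strand, in the same reference.
RPL10C: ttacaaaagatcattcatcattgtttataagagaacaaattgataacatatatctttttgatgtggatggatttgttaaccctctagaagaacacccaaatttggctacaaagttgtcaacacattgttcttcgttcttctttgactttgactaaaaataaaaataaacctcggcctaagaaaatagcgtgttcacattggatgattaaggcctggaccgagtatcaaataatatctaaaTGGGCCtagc
Site II stood in 12 of the 22 ribosomal protein windows (54.5%) and in 9 of the 25 ribosome biogenesis windows (36%), against 13.7% of all promoter windows of this length, both strands searched. The telo box (AAACCCTA) stood in 13.6% and 16% of these windows, against 4.49% of all. Site II also stood in 6 of the 15 cell division windows (40%), a list in which more genes fell than rose.

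Genes that answer mitochondrial dysfunction rose in each tested case. Of 17 retrograde and import genes tested 17 rose (median 3.93), and 5 of them had a control mean under 5. AOX1D, an alternative oxidase that takes electrons from ubiquinone without pumping protons, had a signal of 1558, 198, 1084, 831 and 318 in the Mg-deficient libraries, against 0 in each control library. It was at least 953-fold higher in Mg-deficient leaves (4428 reads against 0, adjusted p = 2.42e-07). The alternative NAD(P)H dehydrogenases NDA1 and NDB4 went with it, NDB4 being at least 183-fold higher than in control leaves. Among genes of the core response to low oxygen, 8 of 9 tested rose and none fell, where 19 were listed and 15 were in the table. Of these 9 genes 4 had a control mean under 5 and were tested through the Mg-deficient group. HB1, a non-symbiotic haemoglobin that scavenges nitric oxide, had signals of 309, 139, 282, 213 and 268 in the Mg-deficient libraries, against 0 in each control library, and was at least 290-fold higher in Mg-deficient leaves (1348 reads against 0, adjusted p = 1.02e-07). ADH1, the alcohol dehydrogenase of fermentation, stood at 262, 43.8, 152, 114 and 109 in the Mg-deficient libraries, against 0 in each control library, and was at least 161-fold higher in Mg-deficient leaves (750 reads against 0, adjusted p = 2.15e-06). In all 3 genes no control read was found, and replicate 2 of the Mg-deficient plants was the lowest of its group.

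Salicylic acid and systemic acquired resistance genes rose together. Salicylic acid is made from chorismate by ICS1 and PBS3, binds the NPR receptors and turns on the pathogenesis-related (PR) proteins. Pipecolic acid is made through ALD1, the monooxygenase FMO1 acts on it, and both enzymes serve the signal between leaves. Of 20 salicylic acid genes tested 18 rose and none fell (median 3.92), and of 16 genes of systemic acquired resistance and PR proteins 16 rose (median 5.75, with 6 of them under 5 in the control mean). ICS1 was measured at 2311, 247, 2188, 1033 and 406 in the Mg-deficient libraries, against 5.8, 41.4, 0.3 and 0.5 in the control libraries (log2 fold change 7.49 ± 0.97, adjusted p = 5.44e-05). The Mg-deficient replicates spread widely, replicates 1 and 3 being the highest, and replicate 2 of the controls was the highest control. WRKY70, a transcription factor of the pathway, had a signal of 2198, 907, 1816, 1517 and 1202 in the Mg-deficient libraries, against 93.5, 303, 248 and 34.2 in the control libraries (log2 fold change 3.53 ± 0.53, adjusted p = 0.000163). ALD1 had signals of 452, 200, 213, 316 and 314 in the Mg-deficient libraries, against 0 in each control library, and was at least 352-fold higher in Mg-deficient leaves (1634 reads against 0, adjusted p = 5.41e-08). FMO1 rose by 7.23 ± 0.72 on the log2 scale (adjusted p = 7.81e-06). The receptors NPR1 and NPR4 did not pass, with log2 fold changes of 2.01 ± 0.83 and 0.22 ± 0.82, while NPR3 rose by 3.62 ± 0.75.

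The PR proteins themselves were uniform among the Mg-deficient libraries and uneven among the controls. PR1 stood at 2094, 1877, 2956, 1467 and 2259 in the Mg-deficient libraries, against 11.7, 216, 0.6 and 1.1 in the control libraries (log2 fold change 7.73 ± 1.1, adjusted p = 0.000111). PR2, a beta-1,3-glucanase, was measured at 7048, 7220, 6108, 7516 and 7479 in the Mg-deficient libraries, against 0.4, 108, 32.7 and 5.0 in the control libraries (log2 fold change 9.06 ± 0.93, adjusted p = 9.44e-06). PR5, a thaumatin-like protein, had a signal of 2621, 2745, 2514, 2839 and 3093 in the Mg-deficient libraries, against 0.4, 93.8, 21.4 and 40.4 in the control libraries (log2 fold change 7.20 ± 0.89, adjusted p = 3.64e-05). In these 3 genes replicate 2 of the controls was the highest control, and the same replicate was the highest control in 8 of the 16 genes of the list and in 10 of the 20 salicylic acid genes. Without replicate 2 of the controls 15 genes of the resistance list and 18 of the salicylic acid list rose. No Mg-deficient library overlapped a control for PR1, PR2 or PR5. The smallest changes of the list were in MPK4, a kinase that restrains the pathway (0.77 ± 0.21), and PR4 (1.54 ± 0.56, adjusted p = 0.0403).

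WRKY transcription factors, which bind the W box, and cysteine-rich receptor-like kinases rose with them. Of 23 WRKY genes tested 20 rose and none fell (median 5.25), with 12 of the 23 under 5 in the control mean and 6 of the 29 listed untested. WRKY75 had signals of 237, 53.8, 154, 135 and 66.5 in the Mg-deficient libraries, against 0 in each control library, and was at least 154-fold higher in Mg-deficient leaves (714 reads against 0, adjusted p = 2.06e-06). WRKY51 had the largest fitted change, at 7.78 ± 0.57, and WRKY11, WRKY26 and WRKY47 did not pass (0.76 ± 0.32, 1.65 ± 0.88 and 1.61 ± 0.92). Of 23 receptor-like kinases tested 17 rose and none fell (median 2.92, with 9 of the 23 under 5 in the control mean). Only 13 rose under median-of-ratios scaling and with equal reads per library. CRK36 stood at 521, 160, 390, 329 and 238 in the Mg-deficient libraries, against 0 in each control library, and was at least 391-fold higher in Mg-deficient leaves (1815 reads against 0, adjusted p = 9.15e-08). Among the Mg-deficient libraries replicate 1 was the highest of its group in 15 of the 23 WRKY genes and in 12 of the 23 kinases, and replicate 2 in none.

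The region before WRKY75 is shown for its W box (TTGACC or TTGACT, in capitals). It is on chromosome 5 at chr5:4151202-4151451, minus strand.
WRKY75: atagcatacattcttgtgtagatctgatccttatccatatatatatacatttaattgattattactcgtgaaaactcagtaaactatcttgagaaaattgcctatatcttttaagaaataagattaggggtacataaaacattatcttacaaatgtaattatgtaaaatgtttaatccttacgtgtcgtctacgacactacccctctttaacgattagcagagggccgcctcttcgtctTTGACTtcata
A W box stood in 12 of the 23 WRKY windows (52.2%), in 14 of the 23 receptor-like kinase windows (60.9%) and in 8 of the 11 detoxification windows (72.7%), against 28.4% of all promoter windows, both strands searched. It stood in 3 of the 20 salicylic acid windows (15%) and in 5 of the 16 windows of systemic acquired resistance (31.2%). Over all risen genes the share was 32.7%.

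Detoxification had the largest median of the 42 lists. Glutathione S-transferases attach glutathione to reactive or foreign compounds, glycosyltransferases add a sugar, and MATE and ABC carriers then move the products to the vacuole or out of the cell. Of 25 glutathione S-transferases tested 16 rose and 1 fell (median 3.68), with 12 under 5 in the control mean, and of 11 other detoxification genes 11 rose (median 6.15, with 7 of the 11 under 5). GSTU25 was measured at 2218, 1013, 1215, 1272 and 1055 in the Mg-deficient libraries, against 0 in each control library, and was at least 1590-fold higher in Mg-deficient leaves (7401 reads against 0, adjusted p = 5.58e-10). Its neighbour GSTU24 is a close copy and the split of reads between them is uncertain. GSTU9 had a signal of 2375, 487, 1363, 1141 and 990 in the Mg-deficient libraries, against 0 in each control library, and was at least 1510-fold higher in Mg-deficient leaves (6995 reads against 0, adjusted p = 6.36e-09). DTX3, a MATE carrier, had signals of 2411, 767, 2194, 1373 and 1427 in the Mg-deficient libraries, against 0 in each control library, and was at least 1960-fold higher in Mg-deficient leaves (9113 reads against 0, adjusted p = 1.24e-09), and lies beside the similar genes DTX1 and AT2G04070, which rose too. The tau-class members GSTU5, GSTU13 and GSTU27 and the phi-class members GSTF9 and GSTF10 lay between -0.42 and 0.35 on the log2 scale and did not pass. GSTU18 was the member that fell (-2.79 ± 0.58, adjusted p = 0.00176).

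The region before GSTU25 is shown for the core TGACG (in capitals), which TGA factors bind. It is on chromosome 1 at chr1:5871774-5872023, plus strand.
GSTU25: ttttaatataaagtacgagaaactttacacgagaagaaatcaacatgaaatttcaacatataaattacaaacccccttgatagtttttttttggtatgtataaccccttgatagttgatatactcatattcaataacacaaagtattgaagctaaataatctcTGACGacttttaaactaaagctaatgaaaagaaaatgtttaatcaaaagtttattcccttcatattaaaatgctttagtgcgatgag
This core stood in 13 of the 25 glutathione S-transferase windows (52%) and in 6 of the 11 detoxification windows (54.5%), against 18.6% of all promoter windows. It also stood in 5 of the 11 windows of photorespiration (45.5%), where most genes fell, and in 20.8% of the windows of all risen genes. It shares TGAC with the W box and differs in the next base, so that a site read on 1 strand counts for one of them alone.

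Defence compounds split by branch. Camalexin and indole glucosinolates derive from tryptophan, and aliphatic glucosinolates from methionine. Of 20 aliphatic genes tested 17 fell and none rose (median -2.66, with 3 of the 20 under 5 in the Mg-deficient mean). FMO GS-OX3, which oxidises the side chain, stood at 51.0, 56.8, 72.2, 80.2 and 57.9 in the Mg-deficient libraries, against 425, 427, 498 and 486 in the control libraries (log2 fold change -2.85 ± 0.22, adjusted p = 1.04e-06). BCAT4 and MAM1, which start the elongation of methionine, fell by 2.71 ± 0.35 and 3.32 ± 0.42 on the log2 scale. On the tryptophan side 10 of 19 tested genes rose and 4 fell, with a median of 1.23 that came to 0.34 under median-of-ratios scaling and 0.09 with equal reads per library. Of these 19 genes 7 had a control mean under 5. PAD3, the last enzyme of camalexin synthesis, was measured at 1499, 645, 640, 962 and 1335 in the Mg-deficient libraries, against 0.1, 11.6, 0.1 and 0.2 in the control libraries (log2 fold change 8.86 ± 0.66, adjusted p = 9.62e-07). MYB34, an activator of indole glucosinolate synthesis, had a signal of 0, 7.0, 9.1, 2.5 and 3.5 in the Mg-deficient libraries, against 39.5, 64.8, 71.8 and 39.6 in the control libraries (log2 fold change -3.66 ± 0.70, adjusted p = 0.000969). The other 3 that fell were SUR1, UGT74B1 and GGP1, which serve the common core of glucosinolate synthesis. The count of 10 rises came to 6 without replicate 1 of the Mg-deficient plants.

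**Figure D4:**
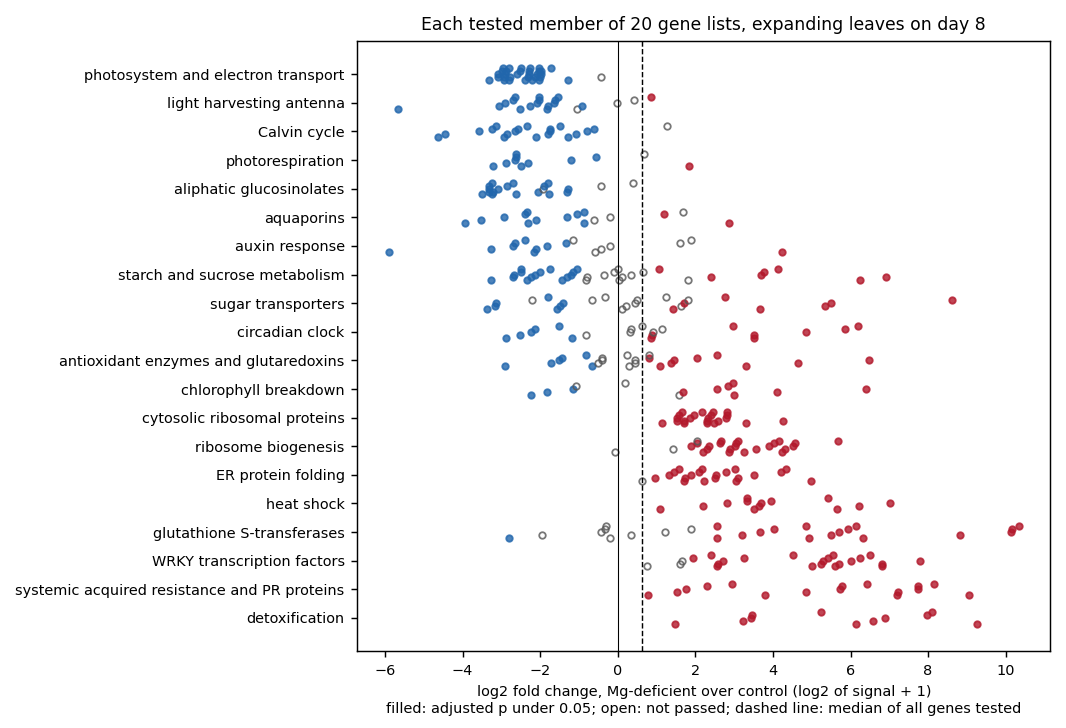
The log2 fold change (Mg-deficient over control, log2 of signal plus 1) of each tested member of 20 gene lists in expanding leaves on day 8, with filled points where the adjusted p was under 0.05 (red higher, blue lower), open points where it was not, and a dashed line at the median of all genes tested, 0.63. Photosystem members sit close together below -1 apart from PGR5, while starch, sugar transporter, clock and antioxidant members lie on both sides.

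Antioxidant genes moved in both directions. Of 23 tested 9 rose and 6 fell (median 0.45), beside 30.8% higher and 14.9% lower over all genes tested. Under median-of-ratios scaling 7 rose and 7 fell (median 0.03). CSD1, the cytosolic copper/zinc superoxide dismutase, had signals of 424, 614, 310, 489 and 423 in the Mg-deficient libraries, against 66.2, 102, 60.8 and 70.5 in the control libraries (log2 fold change 2.57 ± 0.25, adjusted p = 5.72e-06). The cytosolic APX1 and DHAR2, of the ascorbate cycle, rose by 1.37 ± 0.24 and 2.04 ± 0.29 on the log2 scale. TAPX, the thylakoid ascorbate peroxidase, stood at 16.0, 14.9, 3.4, 16.8 and 18.0 in the Mg-deficient libraries, against 149, 111, 104 and 54.5 in the control libraries (log2 fold change -2.91 ± 0.51, adjusted p = 0.000539). The other members that fell were the plastid DHAR3, the peroxisomal CSD3 and APX3, and GSH1 and GSH2, which make glutathione. The glutaredoxin GRXS13 was measured at 160, 144, 222, 141 and 119 in the Mg-deficient libraries, against 0.4, 138, 2.9 and 0.9 in the control libraries (log2 fold change 4.65 ± 1.06, adjusted p = 0.00328). For GRXS13 replicate 2 of the controls lay within the range of the Mg-deficient libraries, and the other 3 controls were near 0.

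Iron and magnesium genes showed few calls. Of 15 iron genes tested 2 rose and 2 fell (median 0.61), beside 30.8% higher and 14.9% lower over all genes tested. FER1, a plastid ferritin that stores iron, had a signal of 196, 191, 206, 187 and 192 in the Mg-deficient libraries, against 46.9, 21.8, 57.7 and 29.1 in the control libraries (log2 fold change 2.39 ± 0.30, adjusted p = 4.01e-05), and its relative FER4 had overlapping groups (1.11 ± 0.91, adjusted p = 0.339) and turned to -0.09 without replicate 4 of the controls. The count of 2 iron genes that rose came to 5 without replicate 1 of the controls, and to 1 without replicate 3 of the controls or replicate 1, 2 or 5 of the Mg-deficient plants. The 2 that fell came to 1 without replicate 3 of the controls. Among 12 genes of Mg transport and its relatives 2 rose and 2 fell, with a median of 0.09 that turned to -0.32 under median-of-ratios scaling. CAX3, a vacuolar cation/proton exchanger known for calcium, had signals of 3003, 3838, 5271, 2674 and 3448 in the Mg-deficient libraries, against 366, 252, 290 and 205 in the control libraries (log2 fold change 3.70 ± 0.23, adjusted p = 2.48e-07). MHX, the vacuolar Mg and zinc/proton exchanger, stood at 8.0, 31.9, 13.9, 27.5 and 15.9 in the Mg-deficient libraries, against 61.7, 80.1, 41.2 and 67.6 in the control libraries (log2 fold change -1.75 ± 0.46, adjusted p = 0.00771). MRS2-11, a plastid Mg transporter, fell by 1.2 ± 0.35, and MRS2-3 rose by 1.52 ± 0.50 on the log2 scale (adjusted p = 0.0127 and 0.0253). The other 8 members did not pass, and the count of rises came to 1 without replicate 1 or 5 of the Mg-deficient plants.

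Sugar transporter genes moved in both directions. Of 24 sugar transporter genes 7 rose, a share near the 30.8% of all genes tested, and 7 fell, beside 14.9% of all genes. Their median of 0.33 turned to -0.08 under median-of-ratios scaling. GPT2, which imports glucose 6-phosphate into plastids and is known to respond to sugar, was measured at 657, 296, 460, 480 and 522 in the Mg-deficient libraries, against 0, 1.0, 0 and 0 in the control libraries, with a ratio of reads of 1720 (95% counting interval 309 to 68100, adjusted p = 2.08e-08). STP13, a plasma membrane hexose importer, had a signal of 778, 290, 340, 435 and 838 in the Mg-deficient libraries, against 30.5, 44.8, 20.3 and 71.4 in the control libraries (log2 fold change 3.67 ± 0.41, adjusted p = 1.69e-05). SUC2, the sucrose/proton symporter that loads the phloem, had signals of 120, 149, 136, 159 and 127 in the Mg-deficient libraries, against 480, 424, 349 and 318 in the control libraries (log2 fold change -1.49 ± 0.20, adjusted p = 7.93e-05). SWEET12, which releases sucrose for that loading, stood at 7.0, 13.9, 12.5, 25.8 and 19.7 in the Mg-deficient libraries, against 184, 123, 149 and 196 in the control libraries (log2 fold change -3.38 ± 0.40, adjusted p = 2.51e-05). The triose phosphate exporter of the chloroplast, TPT, was measured at 111, 174, 131, 284 and 102 in the Mg-deficient libraries, against 1096, 1465, 1555 and 1208 in the control libraries (log2 fold change -3.14 ± 0.28, adjusted p = 3.84e-06). SUC1 and SUC3 rose by 1.42 ± 0.32 and 1.72 ± 0.39 on the log2 scale. No Mg-deficient value of SUC2, SWEET12 or TPT reached the lowest control.

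In starch and sucrose metabolism more genes fell than rose, 15 against 7 of 32, with a median of -0.81 beside 0.63 over all genes tested. GBSS1, the granule-bound starch synthase, had a signal of 81.0, 112, 189, 107 and 134 in the Mg-deficient libraries, against 0 in each control library, and was at least 151-fold higher in Mg-deficient leaves (703 reads against 0, adjusted p = 6.36e-07). ADG2, a large subunit of ADP-glucose pyrophosphorylase, had signals of 19.0, 23.9, 17.1, 31.9 and 24.1 in the Mg-deficient libraries, against 128, 312, 258 and 250 in the control libraries (log2 fold change -3.26 ± 0.33, adjusted p = 9.19e-06). The other large subunits APL3 and APL4 rose (1.06 ± 0.30 and 3.70 ± 0.71), as did the amylases AMY1 and BAM1 (6.24 ± 0.77 and 4.12 ± 0.92). The cytosolic phosphorylase PHS2 fell by 2.48 ± 0.29 on the log2 scale. Replicate 3 of the Mg-deficient plants was the highest of its group in 18 of these 32 genes. Of 10 trehalose phosphate synthase and sugar starvation genes tested 4 rose and 1 fell, with a median of 0.10 that turned to -0.25 under median-of-ratios scaling, and DIN10, a gene of the dark and sugar starvation response, was the one that fell (-2.32 ± 0.77, adjusted p = 0.026). No member fell without replicate 2 of the Mg-deficient plants or replicate 4 of the controls, and 2 fell without replicate 4 of the Mg-deficient plants or replicate 1 of the controls.

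Most tested senescence genes rose. Of 19 senescence and autophagy genes tested 12 rose and 1 fell (median 2.16), beside 30.8% higher and 14.9% lower over all genes tested. Of the 19 genes 7 had a control mean under 5 and were tested through the Mg-deficient group, which favours rises. Under median-of-ratios scaling 10 rose and 1 fell. SAG21, a mitochondrial LEA protein that rises early in senescence and under oxidative stress, stood at 10551, 5360, 6645, 6985 and 7780 in the Mg-deficient libraries, against 0.4, 105, 1.7 and 24 in the control libraries (log2 fold change 9.51 ± 0.97, adjusted p = 9.53e-06). SAG13 rose by 8.79 ± 0.67 on the log2 scale, and NAC042, a transcription factor known to delay senescence, was at least 38.3-fold higher. ATG8A, an autophagosome protein, was measured at 649, 417, 399, 563 and 605 in the Mg-deficient libraries, against 118, 138, 96.9 and 111 in the control libraries (log2 fold change 2.16 ± 0.22, adjusted p = 7.97e-06). Its Mg-deficient libraries were all above the controls. SAG20 was the member that fell (-1.35 ± 0.35).

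Abscisic acid genes moved in both directions. Of 24 tested 12 rose and 4 fell (median 1.98, with 4 of the 24 under 5 in the control mean). XERO2, a dehydrin, had a signal of 1647, 132, 293, 304 and 650 in the Mg-deficient libraries, against 1.2, 8.7, 0.1 and 0.2 in the control libraries (log2 fold change 7.52 ± 0.77, adjusted p = 9.52e-06). COR15B, a cold-regulated plastid protein, had signals of 43.0, 34.9, 48.2, 44.7 and 81.7 in the Mg-deficient libraries, against 786, 738, 652 and 450 in the control libraries (log2 fold change -3.70 ± 0.28, adjusted p = 9.91e-07), and KIN2 stood at 2050, 1057, 1862, 1770 and 1451 in the Mg-deficient libraries, against 10884, 12972, 9334 and 13557 in the control libraries (log2 fold change -2.86 ± 0.21, adjusted p = 9.86e-07). KIN1, which lies beside KIN2 and resembles it, rose by 5.54 ± 0.63, so their separate values depend on how shared reads were counted. RD22 and SOS1 also fell. The study, with another test and threshold, reports SOS1 as unchanged in leaves and roots, and on that ground considered the sodium substitution valid. Of 22 jasmonate genes tested 6 rose and 3 fell (median 0.88), shares near the 30.8% and 14.9% of all genes. Of these 22 genes 6 had a control mean under 5. The fallen ones were AOS, LOX2 and AOC2 of the synthesis pathway, while AOC3 was at least 105-fold higher. In the ethylene list 8 of 17 rose and none fell (median 1.93, with 5 of the 17 under 5 in the control mean). ACS2, which makes the precursor of ethylene, was measured at 214, 41.8, 81.1, 92.1 and 103 in the Mg-deficient libraries, against 0 in each control library, and was at least 125-fold higher in Mg-deficient leaves (580 reads against 0, adjusted p = 2.71e-06).

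Heat shock genes and genes of protein folding rose. The heat shock list holds regulators such as HSFB1 beside chaperones, and does not stand for a single compartment. Of 13 heat shock genes tested 13 rose (median 3.65, with 8 of them under 5 in the control mean), and of 21 genes of folding in the endoplasmic reticulum (ER) 20 rose and none fell (median 2.22, with 4 of the 21 under 5). HSP17.4, a small cytosolic chaperone, had a signal of 183, 256, 287, 47.7 and 52.1 in the Mg-deficient libraries, against 0 in each control library, and was at least 197-fold higher in Mg-deficient leaves (915 reads against 0, adjusted p = 4.73e-06). Replicates 4 and 5 of the Mg-deficient plants were the lowest there. BZIP60, a transcription factor of the unfolded protein response, had signals of 2852, 709, 2093, 1300 and 1155 in the Mg-deficient libraries, against 35.2, 110, 64.4 and 143 in the control libraries (log2 fold change 4.21 ± 0.44, adjusted p = 1.15e-05). CRT1a, a calreticulin of the ER, stood at 398, 492, 327, 436 and 331 in the Mg-deficient libraries, against 122, 105, 109 and 86.4 in the control libraries (log2 fold change 1.89 ± 0.21, adjusted p = 1.6e-05). The pathway to anthocyanins went up as well, with 10 of 15 tested genes higher and none lower (median 3.67, with 7 under 5 in the control mean). TT4, the chalcone synthase at its start, was measured at 82.0, 55.8, 145, 162 and 114 in the Mg-deficient libraries, against 5.4, 0, 0 and 0.1 in the control libraries (log2 fold change 6 ± 0.66, adjusted p = 1.56e-05), and the regulator PAP1 was at least 43.5-fold higher.

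Clock genes were called in both directions. Of 20 tested 8 rose and 6 fell (median 0.75, with 4 of the 20 under 5 in the control mean), beside 30.8% higher and 14.9% lower over all genes tested. Under median-of-ratios scaling 5 rose and 7 fell, and with equal reads per library 5 rose and 6 fell. CCA1, a clock repressor that peaks at dawn, had a signal of 95, 48.8, 73.6, 80.9 and 69.5 in the Mg-deficient libraries, against 0 in each control library, and was at least 87.6-fold higher in Mg-deficient leaves (407 reads against 0, adjusted p = 1.66e-06). ELF4, of the evening complex, had signals of 269, 109, 158, 129 and 177 in the Mg-deficient libraries, against 1005, 1145, 579 and 1103 in the control libraries (log2 fold change -2.52 ± 0.29, adjusted p = 2.06e-05). LUX, also of the evening complex, and TOC1, which peaks in the evening, fell by 1.19 ± 0.24 and 1.52 ± 0.32 on the log2 scale, and RVE8, a morning gene, was at least 34.9-fold higher. The hour of harvest of each library is not in the labels, so treatment and time of harvest cannot be told apart for these genes. The evening element (AAAATATCT) stood in 5 of the 20 clock windows (25%), against 2.36% of all promoter windows.

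More growth genes fell than rose in each list, beside many that did not pass. Of 14 cell expansion genes tested 7 fell and 2 rose (median -1.57), of 16 auxin response genes 9 fell and 1 rose (median -1.58), of 16 aquaporins 11 fell and 2 rose (median -1.19), and of 15 cell division genes 5 fell and 2 rose (median -1.11). Of the 15 cell division genes 7 had a Mg-deficient mean under 5 and were tested through the control group, which favours falls in that list. EXPA11, an expansin that loosens cell walls, stood at 17.0, 18.9, 32.2, 22.9 and 15.9 in the Mg-deficient libraries, against 339, 378, 330 and 578 in the control libraries (log2 fold change -4.19 ± 0.30, adjusted p = 6.77e-07). TIP2;1, an aquaporin of the vacuole membrane, was measured at 100, 265, 150, 349 and 128 in the Mg-deficient libraries, against 3243, 2155, 1870 and 4316 in the control libraries (log2 fold change -3.94 ± 0.37, adjusted p = 4.64e-06). IAA29 had a signal of 0, 0, 0, 0 and 1.9 in the Mg-deficient libraries, against 61.8, 114, 92.9 and 42.7 in the control libraries, with a ratio of reads of 0.0045 (95% counting interval 0.000542 to 0.0164, adjusted p = 8.88e-06). The members that rose were the wall-modifying enzymes XTH24 and TCH4, the auxin-conjugating GH3.5, the aquaporins PIP1;4 and PIP2;3, the cyclin CYCD2;1 and the cell cycle inhibitor SMR5. TCH4 had signals of 802, 652, 1026, 1096 and 217 in the Mg-deficient libraries, against 7.5, 0, 0.1 and 0.1 in the control libraries (log2 fold change 8.54 ± 0.67, adjusted p = 1.33e-06). Of 27 cell division genes listed 25 were in the table and 15 were tested, and of 12 leaf growth regulators 6 were tested, 2 of which fell (GRF1 and TCP3). The count of cell division genes that fell came to 8 without replicate 4 of the controls, and that of growth regulators to 1 without any of replicates 1, 2, 3 and 5 of the Mg-deficient plants or replicate 2 of the controls. All 5 mesophyll markers fell (median -1.75). Of these, RBCS1A and RCA are also in the Calvin cycle list, and CAB3 and LHCB3 in the antenna list. Their fall is therefore not separate from that of the photosynthesis genes. Markers of other cell types in the leaf were lower too in part: 2 of 5 vascular, 2 of 4 epidermal and 0 of 3 guard cell markers fell and none rose.

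Nutrient genes other than those of Mg changed singly. Of 14 nitrogen assimilation genes 6 rose and 4 fell (median 0.54). NIA2, the main nitrate reductase, stood at 873, 1026, 980, 925 and 787 in the Mg-deficient libraries, against 91.0, 77.9, 126 and 201 in the control libraries (log2 fold change 2.97 ± 0.26, adjusted p = 2.74e-06). GLU1, the ferredoxin-dependent glutamate synthase of leaves, was measured at 23.0, 74.7, 70.1, 59.8 and 48.9 in the Mg-deficient libraries, against 346, 198, 373 and 324 in the control libraries (log2 fold change -2.53 ± 0.35, adjusted p = 9.46e-05). GS2, the plastid glutamine synthetase, and the nitrate transporter NRT1.1 fell as well, and NRT1.8, which takes nitrate out of the xylem, was at least 172-fold higher. For NIA2 and GLU1 no library overlapped. Of 11 phosphate genes 2 rose and 1 fell (median 0.40, turning to -0.29 with equal reads per library), and of 14 sulfate genes 3 rose and 2 fell under the deposited scaling, against 0 and 6 under the median of ratios. Over all genes tested 30.8% rose and 14.9% fell under the deposited scaling. The 3 sulfate rises came to 1 without replicate 1 or 2 of the Mg-deficient plants and the 2 falls to 4 without replicate 3 of the controls. The 2 phosphate rises came to 1 without replicate 1 or 5 of the Mg-deficient plants, and the 1 fall to 2 without replicate 3 of the Mg-deficient plants or replicate 3 or 4 of the controls.

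The same treatment had been applied to the plants sampled on day 5 (3 Mg-deficient and 5 control libraries), and in mature leaves, the pair of leaves formed before them, on day 8 (4 and 4 libraries). The tables were normalised separately, so fold changes and not levels were compared. The day 8 change exceeded the day 5 change in 1923 of 14584 genes tested in both (13.2%) and fell short of it in 515 (3.53%), with a median difference of 0.78. These counts rest on the scaling, since under the median of ratios they came to 753 and 1055, and the second count came to 1103 without replicate 1 of the Mg-deficient plants on day 5. Photosystem genes, with a median of -2.35 on day 8 and -1.13 on day 5, differed downward in 14 of 32 cases and upward in none, and antenna genes (-1.92 on day 8 and -0.31 on day 5) differed downward in 11 of 20. GER3 differed most: its log2 fold change was -9.55 ± 0.51 on day 8 and -0.31 ± 0.55 on day 5, a difference of -9.24 ± 0.75 (adjusted p = 1.13e-07).

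Of the 42 lists ER folding had the highest share of upward differences. Its median log2 fold change was 2.22 on day 8 and -0.26 on day 5, and 15 of 21 members differed upward. CRT1a was at 1.89 ± 0.21 on day 8 and -1.57 ± 0.24 on day 5, a difference of 3.46 ± 0.32 (adjusted p = 1.25e-06). NIA2 was at 2.97 ± 0.26 on day 8 and -1.48 ± 0.26 on day 5, a difference of 4.45 ± 0.37 (adjusted p = 1.13e-07), and the catalase CAT2 at 1.84 ± 0.23 on day 8 and -0.90 ± 0.28 on day 5, a difference of 2.74 ± 0.36 (adjusted p = 7.04e-05). Cytosolic ribosomal protein genes (median 2.29 on day 8 and 0.89 on day 5) differed upward in 13 of 22 cases. TT4 was at 6 ± 0.66 on day 8 and -0.83 ± 0.46 on day 5, a difference of 6.84 ± 0.80 (adjusted p = 2.11e-05). AGP2, an arabinogalactan protein, had a signal of 1626, 1137, 820, 1528 and 650 in the Mg-deficient libraries, against 9.1, 2.8, 29.2 and 4.4 in the control libraries, and was at 6.94 ± 0.52 on day 8 and 0.38 ± 0.40 on day 5, a difference of 6.56 ± 0.66 (adjusted p = 2.97e-06). In the defence lists 2 of 15 genes of systemic acquired resistance and 1 of 19 WRKY genes were further up on day 8, beside 13.2% of all genes, so that the share of the first was that of all genes. For PAD3 the changes were 8.86 ± 0.66 on day 8 and 8.83 ± 0.61 on day 5, a difference of 0.03 ± 0.90 (adjusted p = 0.984), and for PR2 9.06 ± 0.93 on day 8 and 3.58 ± 0.37 on day 5, a difference of 5.48 ± 1 (adjusted p = 0.00215). CAB2 was at 0.85 ± 0.33 on day 8 and 4.61 ± 0.30 on day 5, a difference of -3.76 ± 0.44 (adjusted p = 1.41e-05), with the limit on close copies given above.

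**Figure D5:**
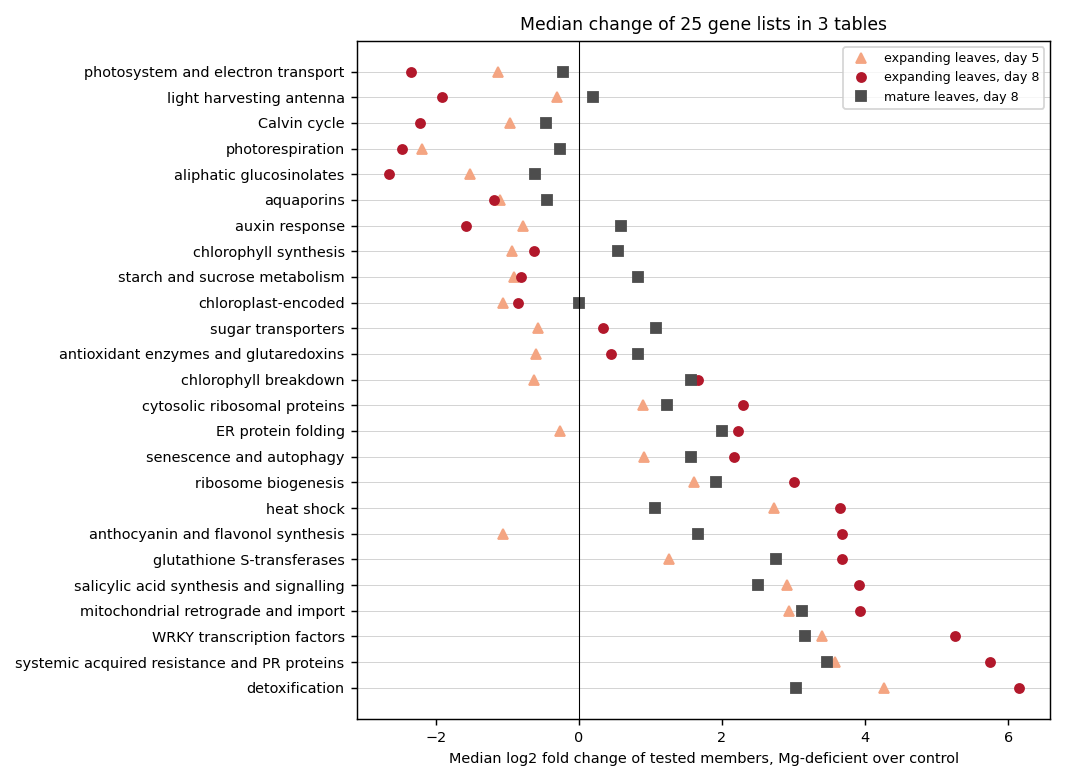
Median log2 fold change (Mg-deficient over control) of the tested members of 25 gene lists in expanding leaves on day 5 (orange triangles), expanding leaves on day 8 (red circles) and mature leaves on day 8 (grey squares), each from its own table. For photosystem genes the medians were -1.13, -2.35 and -0.23, and for ER folding genes -0.26, 2.22 and 2.

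Against mature leaves of the same day, the change in expanding leaves was larger upward in 215 of 12956 genes (1.66%) and further downward in 556 (4.29%), with a median difference of -0.40. Here too the scaling counted: under the median of ratios the numbers were 380 and 121. They also rested on single mature libraries, with 99, 111 and 128 upward genes when replicate 1, 2 or 3 of the Mg-deficient mature leaves was left out, and with 277 and 332 downward genes without replicate 1 or 3. Photosynthesis lists had the largest shares of such genes: 27 of 32 photosystem, 15 of 20 antenna and 13 of 20 Calvin cycle genes were further down in expanding leaves, and the photosystem median of mature leaves was -0.23. PETC was at -2.38 ± 0.18 in expanding leaves, against -0.35 ± 0.27 in mature ones, a difference of -2.03 ± 0.32 (adjusted p = 4.48e-05). The plastid gene ATCG00220 was at -2.82 ± 0.22 in expanding leaves, against -0.36 ± 0.28 in mature ones, a difference of -2.46 ± 0.35 (adjusted p = 1.13e-05). RPL10C was at 4.25 ± 0.20 in expanding leaves, against 3.06 ± 0.77 in mature ones, a difference of 1.19 ± 0.80 (adjusted p = 0.423).

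Several of the largest rises exceeded those in mature leaves. AT3G02480 was at 11.97 ± 0.31 in expanding leaves, against 3.15 ± 1.33 in mature ones, a difference of 8.82 ± 1.37 (adjusted p = 6.29e-05). AT5G40040, which the reference places in the acidic ribosomal protein family, had signals of 595, 757, 473, 671 and 881 in the Mg-deficient libraries, against 0 in each control library, and was at 9.37 ± 0.34 in expanding leaves, against 2.41 ± 1.41 in mature ones, a difference of 6.96 ± 1.45 (adjusted p = 0.00261). PR2 was at 9.06 ± 0.93 in expanding leaves, against 3.57 ± 0.36 in mature ones, a difference of 5.49 ± 0.99 (adjusted p = 0.00325), and SOT12 at 7.36 ± 0.32 in expanding leaves, against 3.88 ± 0.55 in mature ones, a difference of 3.49 ± 0.64 (adjusted p = 0.000338). Of the glutathione S-transferases 5 of 23 and of the detoxification genes 4 of 10 were further up, and UGT73B5 was among them with 6.59 ± 0.55 in expanding leaves, against -0.93 ± 1.35 in mature ones, a difference of 7.52 ± 1.46 (adjusted p = 0.000839). The salicylic acid list had a median of 3.92 in expanding leaves, against 2.50 in mature ones, and the WRKY list 5.25 against 3.16, and 1 gene of each list was further up in expanding leaves.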

How the data were processed

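Leaf messenger RNA was made into strand-specific libraries and sequenced as short single-end reads. After mapping to TAIR10 and counting by gene, the authors deposited normalised signal in separate tables by tissue and day. R 3.5.0 is in the submitters' processing notes, and the aligner and counter are not given in the sources used here. The values follow a quantile adjustment with a dispersion of 0.05, which was inverted to whole reads (tolerance 0.01) for depth, bounds and 2 alternatives.

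Where the signal averaged 5 or more, genes were tested with limma 3.58.1 in R 4.3.3 on log2(signal + 1), which understates the change of low genes. The 3 tables used were fitted separately, and differences between their changes were tested from the estimates and their standard errors.

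Named genes were the 12 largest rises and falls (mean of at least 20, no overlap), up to 4 members of each list with the smallest p, members that went against their list, genes the study names, the 8 with the highest mean signal in each group, and the 5 largest differences each way. Members, lists and tests were chosen with earlier results of these data known. Of 868 list entries 837 matched a symbol. Sequences are from RefSeq. Bounds and intervals cover counting error and not the spread between libraries, with 3 reads standing for a group at 0. Alternatives were another pseudocount, filter, scaling or depth, voom, a replicate block and each library left out. No gene set test was run.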

Additional observations from a re-analysis of the deposited data

Results flagged for a closer look

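A library far from the rest of its group was found in 21 of 145 groups looked at. A group was the Mg-deficient or the control libraries of a gene, or of a depth measure. A chance rate of about 1 in 20 cannot be used here, because several control groups had almost no reads in all but 1 library. Many of the genes were also chosen for large changes or small p-values. Whether 21 is more than chance gives was therefore not tested. Among Mg-deficient libraries the distant value was the highest for AT3G02480 (8393), GER3 (13.7), FBA5 (61.6), GSTU25 (2218), COR15B (81.7) and IAA29 (1.9), and the lowest for NOP56 (1835) and TAPX (3.4). Among control libraries it was the lowest for CAB2 (935) and the highest for LHCA6 (717), PR1 (216), GRXS13 (138), ICS1 (41.4), PAD3 (11.6), XERO2 (8.7), TCH4 (7.5) and TT4 (5.4). For AT3G02480, AT3G28510, LTP4 and GPT2 the distant control value was 1 read, at a signal of 1.

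By a test of the difference, the day 8 change departed from the day 5 change upward for AT3G04165 (7.77), TT4 (6.84), EMB3120 (6.78), AT1G80620 (6.75) and AGP2 (6.56), and downward for GER3 (-9.24), AT1G10682 (-5.25), EXLB1 (-5.20), WCRKC1 (-5.09) and FBA5 (-4.94), all on the log2 scale. The change in expanding leaves differed from that in mature leaves upward for AT3G02480 (8.82), AT5G40040 (6.96), LTP4 (6.77), AT3G28510 (6.75) and AT3G28580 (6.73), and downward for GER3 (-7.02), AT1G50732 (-6.57), AT3G55240 (-6.17), AT4G12917 (-5.84) and AT3G19800 (-5.82). These are the 5 largest differences each way and were chosen by their size.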

How the results depend on the processing

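The counts of the day 8 comparison stayed within 1.5 times under each alternative, from 3578 (median of ratios) to 5859 (no filter) higher genes and from 1700 (replicate block) to 3058 (median of ratios) lower genes. With 1 library left out they ran from 3970 to 5094 higher and from 1957 to 2516 lower. The same replicate numbers did not pair the samples (correlations of -0.03, -0.03, -0.03 and 0 between same-numbered libraries), and the replicate block gave 4044 higher and 1700 lower genes. On the recovered reads limma voom called 5003 higher and 2279 lower genes. Of 280 named and tested genes 264 kept their call and direction under the median of ratios, 269 with equal reads per library, 278 with voom and 257 with the block.

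The comparisons with other tables moved more. The count of upward differences from day 5 came to 2982 with no filter, 1241 with a mean of at least 20 and 753 under the median of ratios, and the downward count to 1055 under the median of ratios and 1103 without replicate 1 of the Mg-deficient day 5 plants. The upward count against mature leaves came to 393 with a pseudocount of 5, 483 with no filter, 380 under the median of ratios and 327 with size factors over genes above 1 in every library, a scaling chosen after seeing the data, and to 99, 111 and 128 without Mg-deficient mature replicate 1, 2 or 3. The downward count came to 121 under the median of ratios, and to 277 and 332 without Mg-deficient mature replicate 1 or 3. CHLI1, which passed no test, came to 0 with the replicate block and ran from -0.68 to 0.31 with 1 library left out, turning sign without Mg-deficient replicate 1 (0.17) or 5 (0) and control replicate 1 (0.31) or 3 (0.12). FER4 ran from -0.09 (without control replicate 4) to 1.77. The cause was not tested. A gene with no control read may lie below detection in the control libraries. Most of these libraries were shallower, but they also held fewer genes at equal reads (12275 to 15065, against 17878 to 18370 in Mg-deficient libraries). The reason for that gap was not tested.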

Other observations

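Beside the lists, several transcripts abundant in control leaves were lower without Mg. ELP, an extensin-like protein, held 0.0403 ± 0.0407% of the Mg-deficient signal (SD, n = 5), against 0.776 ± 0.328% of the control signal (SD, n = 4). GRP7, a glycine-rich RNA-binding protein under clock control, held 0.635 ± 0.206% of the Mg-deficient signal, against 2.08 ± 0.333% of the control signal. Their log2 fold changes were -4.59 ± 0.64 and -1.56 ± 0.24 (limma, adjusted p = 1e-04 and 0.00019). No Mg-deficient library reached the lowest control library in either gene.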
